A study of Mus musculus with 37 samples.

Results

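The T cell genes described here are 32 gene symbols that code for the T cell receptor complex, its co-receptors and signalling proteins, and the surface receptors and transcription factors of T lymphocytes. They were taken by symbol from a fixed list, not by their values. All 32 were found among the 24421 symbols of the count table. They were measured in lungs of 37 C57BL/6 mice, 1 RNA-seq library per mouse, and the values below are reads per 1000000 reads of the library (CPM).

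Mice received 0.75 Gy of radiation, or 0 Gy in a mock exposure. The radiation was accelerated silicon ions, a mixture of 5 kinds of ion that simulates galactic cosmic radiation (GCR), or gamma rays from caesium. Nicotinamide riboside (NR), a precursor of NAD, was given to some mice at 12 mM in the drinking water, beginning ahead of the exposure. There were 6 groups: mock (7 mice, 5 male and 2 female), mock + NR (5 mice, 4 male and 1 female), silicon (7 mice, 3 male and 4 female), silicon + NR (6 mice, 4 male and 2 female), GCR (7 mice, 3 male and 4 female) and gamma (5 mice, 3 male and 2 female). Neither ages nor the time from exposure to tissue collection are stated in the labels. Each kind of radiation without NR was set against the same mock mice, so these comparisons share their controls. Whole lung tissue was used, and in such bulk samples fewer cells of a type and less RNA per cell cannot be told apart.

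T cells recognise antigen with a receptor whose signal passes into the cell through the CD3 chains. The kinase Lck, carried to the receptor by CD4 or CD8, starts this signal, Zap70 takes it up, and the adaptor Lat spreads it. Helper T cells carry CD4, cytotoxic T cells carry CD8, and regulatory T cells are set apart by the transcription factor Foxp3. In lung, T cells sit in the tissue, in blood and in lymphoid aggregates, and lymph nodes lie beside the airways at the root of the lung.

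Libraries held 9485197 to 66381526 reads. Ccl19, a chemokine of lymphoid tissue stroma, was over 100 CPM in 3 libraries, which are called lymphoid-rich below: silicon replicates 3 and 6 and mock + NR replicate 4. It reached at most 21.4 CPM in the other 34. Acta1, the actin of skeletal muscle, was over 1000 CPM in 13 libraries (muscle-rich), of which 12 were not lymphoid-rich, and none was GCR or gamma. Rn45s, the precursor of ribosomal RNA, was over 100000 CPM in 4, namely mock replicate 4 and GCR replicates 2, 5 and 6. Gamma replicate 5, labelled female, carried Xist at 3.73 CPM and the Y-linked Ddx3y at 87.6 CPM, which goes against its label. Sex was a term of the model. Summed markers of alveolar epithelium stood between 2318 and 47424 CPM in all 37 libraries, so each held lung.

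The 3 CD3 genes that lie together on chromosome 9, the kinase gene Lck, and the genes Cd5 and Bcl11b are shown by the sequence around their start sites. The first 4 are shown because their levels moved together across libraries, and the last 2 because theirs did not follow. Cd3d and Cd3g run away from each other, with start sites 1355 bases apart in the GENCODE annotation. Each sequence runs from 250 bases before to 50 bases after the start, from RefSeq on GRCm38.p6. Capitals mark matches, on either strand, to the core letters given below for RUNX factors, for TCF and LEF factors, which include Tcf7 and Lef1, and for GATA factors, which include Gata3.
Cd3e (chr9:45009562-45009861, minus strand): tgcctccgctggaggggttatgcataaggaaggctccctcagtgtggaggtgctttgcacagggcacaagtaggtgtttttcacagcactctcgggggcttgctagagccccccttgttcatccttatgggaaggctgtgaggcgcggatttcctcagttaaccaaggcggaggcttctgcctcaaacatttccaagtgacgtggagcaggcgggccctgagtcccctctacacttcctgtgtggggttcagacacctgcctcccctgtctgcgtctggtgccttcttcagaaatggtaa
Cd3d (chr9:44981536-44981835, plus strand): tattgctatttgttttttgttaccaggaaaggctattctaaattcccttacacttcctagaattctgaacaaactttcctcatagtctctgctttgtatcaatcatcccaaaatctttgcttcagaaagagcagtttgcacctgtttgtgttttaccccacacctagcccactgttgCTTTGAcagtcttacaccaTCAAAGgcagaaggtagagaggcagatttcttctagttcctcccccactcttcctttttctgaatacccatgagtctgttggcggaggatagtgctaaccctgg
Cd3g (chr9:44980382-44980681, minus strand): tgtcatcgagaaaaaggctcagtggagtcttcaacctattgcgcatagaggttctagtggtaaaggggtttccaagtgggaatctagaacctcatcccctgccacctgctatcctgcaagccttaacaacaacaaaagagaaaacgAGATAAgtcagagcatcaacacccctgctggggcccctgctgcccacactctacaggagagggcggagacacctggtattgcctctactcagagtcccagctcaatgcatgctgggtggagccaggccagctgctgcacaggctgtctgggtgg
Lck (chr4:129573592-129573891, minus strand): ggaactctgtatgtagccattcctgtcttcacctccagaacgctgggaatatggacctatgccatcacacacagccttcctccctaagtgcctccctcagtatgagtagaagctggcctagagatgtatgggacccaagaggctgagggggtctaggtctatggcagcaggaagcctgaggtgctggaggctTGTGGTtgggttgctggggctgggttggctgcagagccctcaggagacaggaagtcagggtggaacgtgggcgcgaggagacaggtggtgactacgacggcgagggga
Cd5 (chr19:10738925-10739224, minus strand): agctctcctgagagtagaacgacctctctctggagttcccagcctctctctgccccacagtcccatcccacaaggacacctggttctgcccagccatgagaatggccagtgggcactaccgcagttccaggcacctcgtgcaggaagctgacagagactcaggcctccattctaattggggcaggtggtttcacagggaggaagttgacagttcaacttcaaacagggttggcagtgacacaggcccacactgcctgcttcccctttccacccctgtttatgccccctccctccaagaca
Bcl11b (chr12:108003365-108003664, minus strand): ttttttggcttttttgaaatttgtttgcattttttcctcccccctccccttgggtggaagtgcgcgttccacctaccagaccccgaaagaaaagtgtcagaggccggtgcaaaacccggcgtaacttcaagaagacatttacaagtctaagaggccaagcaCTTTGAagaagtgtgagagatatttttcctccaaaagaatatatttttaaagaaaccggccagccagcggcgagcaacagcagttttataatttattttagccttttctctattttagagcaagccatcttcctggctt
Promoters of 22 of the 32 members were in the RefSeq table. The TCF and LEF letters CTTTGA were in 7 of these 22 (31.8%) and in 16.2% of all 27025 promoters of the same length. The RUNX letters TGTGGT were in 5 (22.7%, against 16.9%). The GATA letters AGATAA were in 2 (9.09%, against 11.4%). The 3 sets of letters do not overlap in the sequences shown. Matches to CTTTGA in the Cd3d sequence began at positions -73 and -54, counted from the start site, and the match to TGTGGT in that of Lck at -58. Such matches are letters in a window and not sites of measured binding.

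The T cell genes were low in most lungs and far higher in the 3 lymphoid-rich libraries. Cd3e, the epsilon chain of CD3 (mm10, chromosome 9, 44998740 to 45009627, minus strand), was at 110.5 CPM in silicon replicate 3, 47.3 in silicon replicate 6 and 54.2 in mock + NR replicate 4. In the other 34 libraries it lay between 0.339 and 9.19 CPM, with a median of 3.03. Even the lowest of the 3 was thus above every other library.

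For 30 of the 32 members the 3 lymphoid-rich libraries stood above all 34 others, and the share among all genes was not counted. The exceptions were Gata3, a transcription factor of type 2 helper T cells that other lung cells also use, and Thy1, a surface protein that fibroblasts share with T cells. Relative to the median of the 34, the members' median was 21.1-fold in silicon replicate 3, with a range from 2.56 (Gata3) to 66.5 (Cd8b1). It was 12.8-fold in silicon replicate 6, with a range from 1.66 to 36.4, and 10-fold in mock + NR replicate 4, with a range from 1.53 to 35.2, with the same genes at either end. Summed over all members, the level was 1140 to 2122 CPM in these 3 libraries and 70 to 239 in the 34 others. No test was made of this split, because the libraries were singled out by a gene measured in them.

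Markers of other cells moved with it. The summed level of 10 B cell markers was 972 to 2524 CPM in the 3 libraries and 13.9 to 332 in the others. For 5 markers of lymph node stroma and high venules it was 272 to 642 against 2.47 to 82.2 CPM, with Ccl19 left out of the sum because it singled out the libraries. Glycam1, an adhesion ligand made by high endothelial venules, reached 48.9 CPM in silicon replicate 3, 492 in silicon replicate 6 and 77.6 in mock + NR replicate 4, and at most 4.14 elsewhere. Cxcl13 and Madcam1 of the same list were likewise above every other library in all 3. Chst4 was not, at 5.77, 13.6 and 9.1 CPM in that order and up to 31 elsewhere, and Ccl21a was at 0 in all 37 libraries. The part of these cells in the result was not tested. Rag1, which rearranges receptor genes in immature lymphocytes, was at 0, 0.0752 and 0.0737 CPM in that order. Ptcra, which pairs with the receptor of immature thymocytes, was at 0 in all 3. Dntt, which adds bases to receptor genes as they are joined, was at 1.23, 1.62 and 1.14 CPM, above its highest level of 1.02 elsewhere. Summed markers of thymocytes and thymic epithelium were 5.67 to 10.6 CPM in the 3 and 1.13 to 16.7 in the others. Summed markers of natural killer cells were 20 to 33 CPM in the 3 and 0.949 to 32.7 in the others, so both sums overlapped. Gzma, a granule protease, was the natural killer marker that reached highest elsewhere, at up to 20.2 CPM. The factor Eomes stood at 9.05, 4.21 and 4.49 CPM in the 3 libraries, with a highest level of 1.41 elsewhere. Prf1, which codes for perforin, was at 5.46, 3.98 and 2.98 against at most 2.32, and the receptor Klre1 at 4.12, 3.61 and 3.13 against at most 2.9. All 3 of these genes were thus above every other library. Other natural killer markers of the list were not. Ncr1 was at 3.7, 2.29 and 1.18 CPM against up to 3.9 elsewhere, and Klrb1c at 5.25, 3.42 and 4.01 against up to 4.1. Klrg1 was at 1.55, 1.47 and 0.958 against up to 1.79, and Klra8 reached at most 0.0376 CPM in any library.

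**Figure D1:**
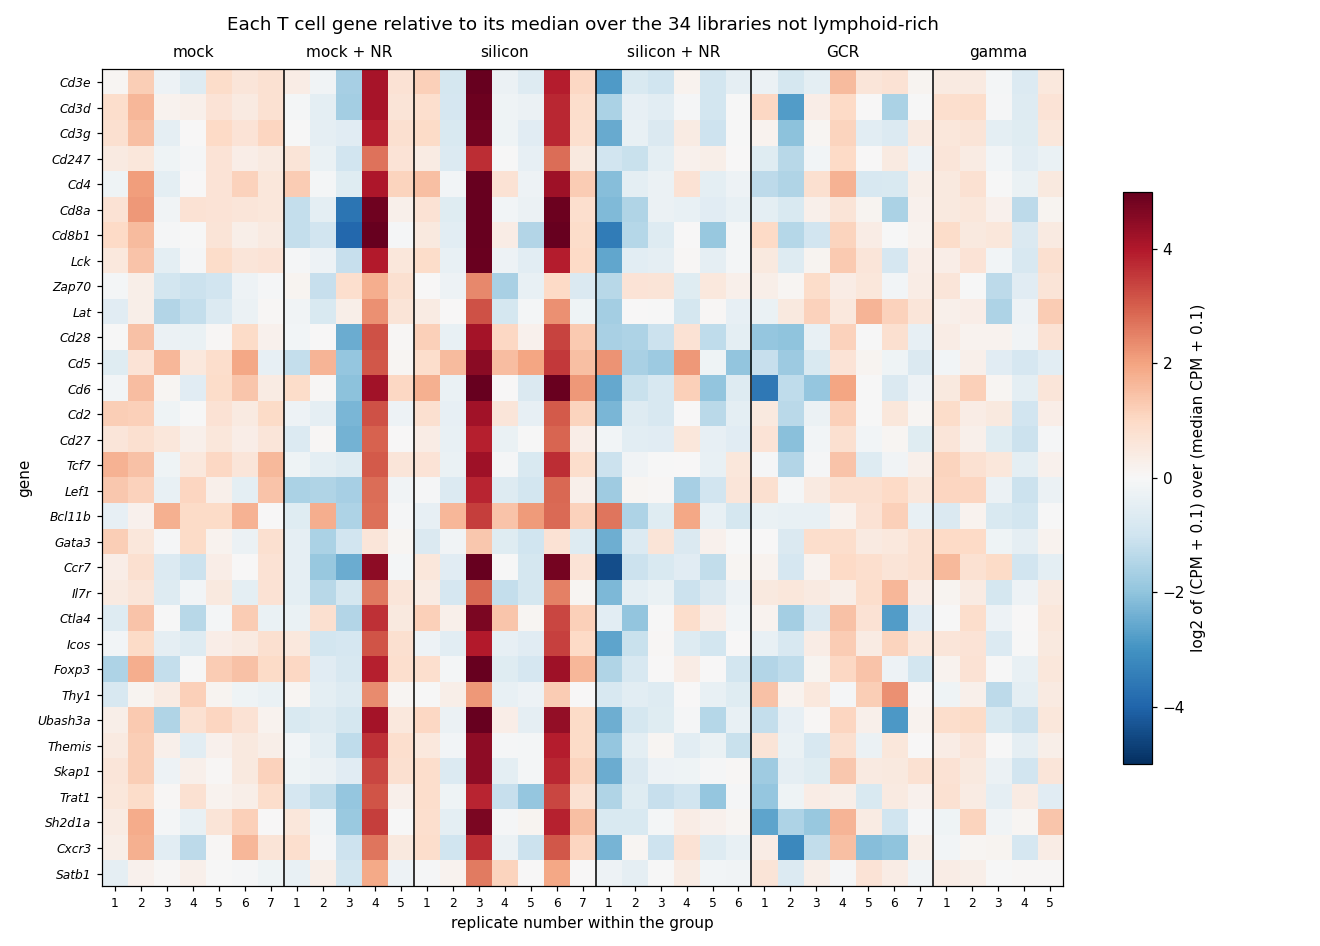
Each of the 32 T cell genes (rows) in each of the 37 libraries (columns, by group and replicate number), as log2 of CPM + 0.1 over the gene's median CPM + 0.1 across the 34 libraries that are not lymphoid-rich, with colours capped at 5 in either direction. The columns of mock + NR replicate 4 and silicon replicates 3 and 6 are red in nearly every row, palest for Gata3, and silicon + NR replicate 1 is blue in most rows but red for Cd5 and Bcl11b.

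Among the 34 other libraries, no group stood apart by its summed level. Mock replicate 2 was the highest for 14 members, and silicon + NR replicate 1 the lowest for 13. Summed over the members, levels ran from 116 to 239 CPM in mock, with a median of 163. They ran from 114 to 187 (median 133) in the 5 remaining silicon libraries, from 85.8 to 224 (median 153) in GCR and from 86.6 to 185 (median 167) in gamma. With NR they ran from 77.8 to 136 (median 100) in silicon + NR and from 70 to 161 (median 108) in the 4 remaining mock + NR libraries. By this sum every group overlapped with every other. By single genes, every silicon + NR library lay below every mock library for 3 of the 32 members, Cd3d, Cd8a and Trat1, an adaptor of the receptor complex, beside 0.295% of all genes tested. Silicon + NR and mock differ in both radiation and NR, and no test was made between them.

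Per kilobase of exon, the members' median levels in these 34 libraries spanned from Lat at 4.25 CPM per kilobase, through Cd2, an adhesion receptor, at 3.57, Ccr7, which guides naive T cells to lymph nodes, at 2.87 and Lck at 2.43, to Ubash3a, a suppressor of receptor signalling, at 0.0567. Foxp3 was at 0.0601. For 12 members some exon bases overlap another gene in the annotation. The overlap was 60.3% of the exon bases of Cd247, the CD3 zeta chain, chiefly with Pou2f1 on the opposite strand. It was 45.5% for Foxp3, and 26.6% for Sh2d1a, a signalling adaptor, with Tenm1. The kit does not mark strand, so reads from such stretches cannot be told apart.

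Every chain of the receptor complex was highest in the lymphoid-rich libraries. For Cd3e the lowest, median and highest levels were 1.92, 4.67 and 7.16 CPM in mock, and 1.58, 6.37 and 110.5 in silicon. They were 0.339, 1.65 and 3.42 in silicon + NR and 1.61, 3.33 and 9.19 in GCR. The 5 mock + NR libraries were at 0.902, 2.69, 3.96, 5.06 and 54.2 CPM and the 5 gamma libraries at 1.85, 2.82, 4.14, 4.18 and 4.43. Apart from the 3 lymphoid-rich libraries all groups overlapped with mock in Cd3e, and silicon + NR had the lowest median. For Cd3d, the delta chain, silicon + NR was at 1.05, 2.42 and 3.37 CPM and mock at 3.79, 5.52 and 11, with no overlap. Per Cd3e read, Cd3d gave 0.943 to 1.12 reads and Cd3g 1.13 to 1.28 in the lymphoid-rich libraries, with medians of 1.14 and 1.52 in the others. The zeta chain Cd247 stood less far above its level elsewhere. It was at 13.5, 7.19 and 6.77 times its median in the 34 others, and Cd3e at 36.5, 15.6 and 17.9 times. It gave 0.399, 0.498 and 0.409 reads per Cd3e read, below all 34 other libraries (0.591 to 4.8).

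The CD8 chains stood far above their level elsewhere in the lymphoid-rich libraries, and the beta chain Cd8b1 had the highest fold of all members in each of the 3. Cd8a, the alpha chain of CD8 (chromosome 6, 71373427 to 71379173, plus strand), was at 66.1, 37.5 and 36.9 CPM there. Its median was 1.15 in the other 34, and it had 0 reads of 26612450 in mock + NR replicate 3, where 3 reads would be 0.113 CPM. In mock its lowest, median and highest levels were 1, 1.94 and 5.54 CPM, and in silicon they were 0.726, 1.98 and 66.1. In silicon + NR they were 0.169, 0.809 and 0.933, so all 6 libraries lay below mock, as did 5 of 6 for Cd8b1. Cd4 was at 1.17, 2.53 and 7.33 CPM in mock and 1.37, 4.2 and 55.8 in silicon. In silicon + NR it was at 0.305, 1.26 and 2.84 and in GCR at 0.516, 0.949 and 5.75, so GCR reached below mock in 4 of 7 libraries. These were GCR replicates 1, 2, 5 and 6, on only 16, 9, 15 and 9 Cd4 reads, and replicates 2, 5 and 6 are high in Rn45s.

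The balance of CD8 to CD4 reads could be read most firmly in the lymphoid-rich libraries. Cd8a made up 54.2% of all Cd8a and Cd4 reads in silicon replicate 3 (exact 95% binomial interval 52.6 to 55.9). The share was 53.3% in silicon replicate 6 (51 to 55.6) and 56.1% in mock + NR replicate 4 (53.7 to 58.4). In the 34 others it ranged from 0% to 58.3% with a median of 36.8%, on a median of 30 Cd8a reads, so single values there are loose. Reads of these libraries are not independent molecules, and the intervals cover counting error only. The genes also differ in length, so the share is no share of cells.

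Foxp3 gave 25.2, 21.4 and 18.7 reads per 100 Cd4 reads in silicon replicates 3 and 6 and mock + NR replicate 4, and the median elsewhere was 14.1, on a median of 8 Foxp3 reads. Ccr7 gave 2.1, 3.38 and 2.37 reads per Cd3e read in the same order, and a median of 1.52 elsewhere. Other members gave fewer reads per Cd3e read in the lymphoid-rich libraries than elsewhere. Lat gave 0.974, 1.22 and 1.06 against a median of 3.63, and Zap70 gave 0.309, 0.275 and 0.418 against 1.95. All 3 ratios lay below every one of the 34 for Lat and Zap70, and likewise for Cd247, Il7r, Gata3, Thy1 and Satb1, a chromatin organiser that many cells use. Cd3e itself was at 36.5, 15.6 and 17.9 times its median elsewhere, so any gene that rose less gives a lower ratio. The share of all genes with such low ratios was not counted. These ratios are given as levels, with no test.

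**Figure D2:**
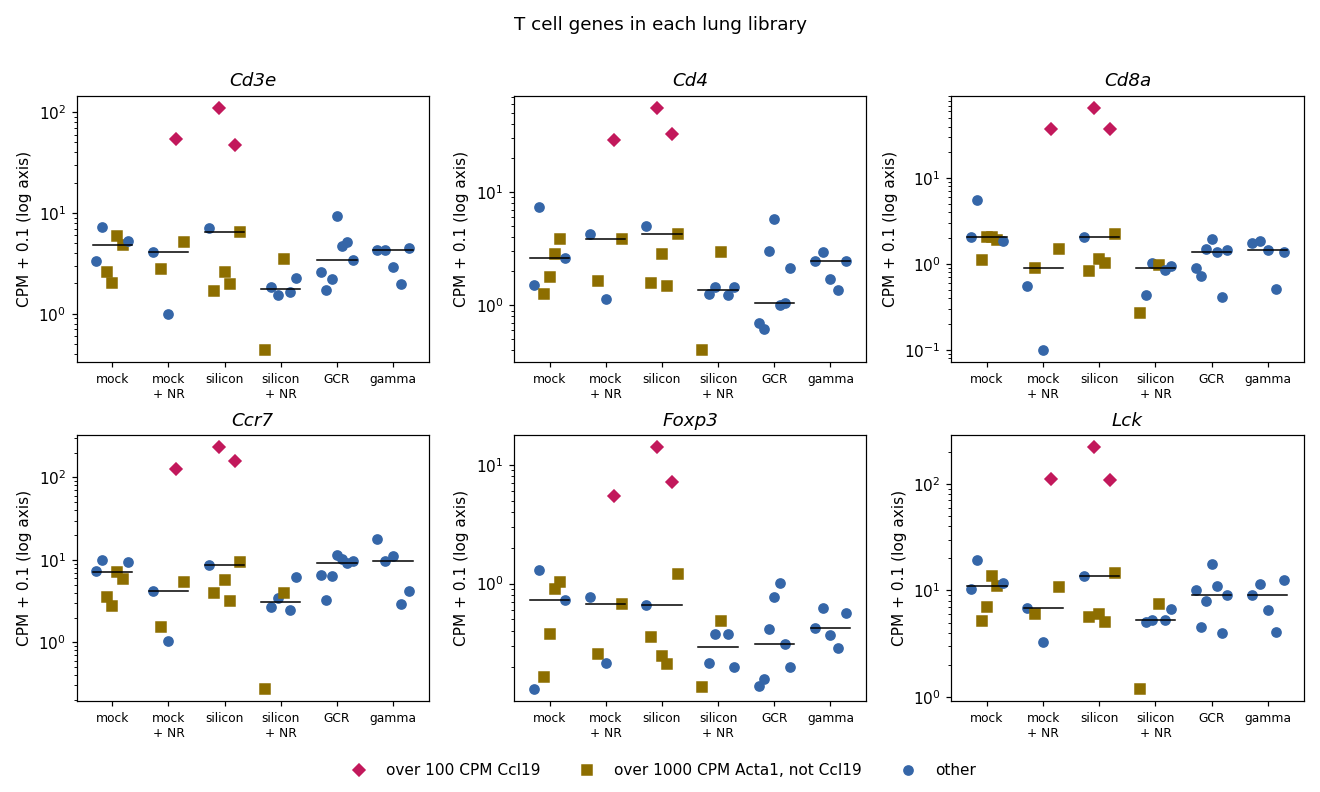
CPM + 0.1 on a log axis for Cd3e, Cd4, Cd8a, Ccr7, Foxp3 and Lck, 1 point per library by group, with black lines at the group medians. Diamonds mark the 3 lymphoid-rich libraries, which lie above all others in each panel, and squares the 12 muscle-rich libraries that are not lymphoid-rich; the Cd8a point at 0.1 is mock + NR replicate 3, with no read.

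In silicon against mock, which asks what the ions did without NR, 31 of 32 members had a higher fitted level, yet 0 passed the test. The median log2 fold change of the members was 1.89 and that of all genes tested was 0.07. By the edgeR quasi-likelihood test, 0 members had an adjusted p under 0.05, beside 0% of the 16977 genes tested. At an unadjusted p under 0.05 there were 25 members, all higher, beside 12.9% of all genes. DESeq2 called 9 members, all higher, beside 2.49% of its genes: Lat, Cd3e, Cd6, Themis, Satb1, Cd4, Ctla4, Lck and Ubash3a.

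Cd3e stood at a log2 fold change of 2.47 (SE 0.77, edgeR adjusted p = 0.126), Cd4 at 2.28 (SE 0.72, adjusted p = 0.133) and Cd8a at 2.79 (SE 0.95, adjusted p = 0.161). Lck stood at 2.22 (SE 0.71) and Ccr7 at 3.18 (SE 0.92). Foxp3 was at 2.48 (SE 0.91), Tcf7, a factor of naive and memory T cells, at 1.29 (SE 0.60), and Cxcr3, a homing receptor of activated T cells, at 1.21 (SE 0.69). Il7r, the receptor for the survival cytokine IL-7, was at 1.02 (SE 0.55) and Thy1 at 0.50 (SE 0.47). These values rest on 2 mice. Silicon replicates 3 and 6 held 89.1% of all Cd3e signal in the 7 silicon libraries.

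Without the lymphoid-rich libraries the direction turned. This removal takes the libraries with the highest member levels from silicon and none from mock. Mock replicate 2, the highest of the 34 for 14 members, stays in. The fold is thus lowered by construction, and the turned sign does not show a lower level in silicon. The median log2 fold change of the members became -0.29, with 8 members higher and 24 lower, and that of all genes was 0.02. Cd3e stood at -0.15 (SE 0.43), Cd4 at 0.07 (SE 0.50), Cd8a at -0.68 (SE 0.54) and Lck at -0.27 (SE 0.37). Ccr7 was at -0.05, Il7r at -0.54, Tcf7 at -0.85, Foxp3 at -0.42, Cxcr3 at -0.48 and Thy1 at -0.24. By edgeR 0 members passed, with 3 at an unadjusted p under 0.05, all lower, beside 7.85% of all genes.

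By role, all 4 receptor complex chains were higher with all libraries (median log2 fold change 2.0) and all 4 lower without the lymphoid-rich ones (-0.39). The 3 co-receptor chains went from a median of 2.79 to -0.45, and the 8 proximal signalling genes from 1.99 to -0.20. The 8 adhesion and costimulation genes went from 1.83 to 0.08, the 6 transcription factors from 1.22 to -0.63 and the 3 homing and cytokine receptors from 1.21 to -0.48. None of these members passed the edgeR test in either fit. Among 36 other measured genes of T cells and their receptor pathway, 33 were higher and 0 passed with all libraries (median 1.16), and 8 were higher and 0 passed without the lymphoid-rich ones (-0.19). The receptor constant genes Trac, Trbc1, Trbc2 and Trdc were not analysed here.

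**Figure D3:**
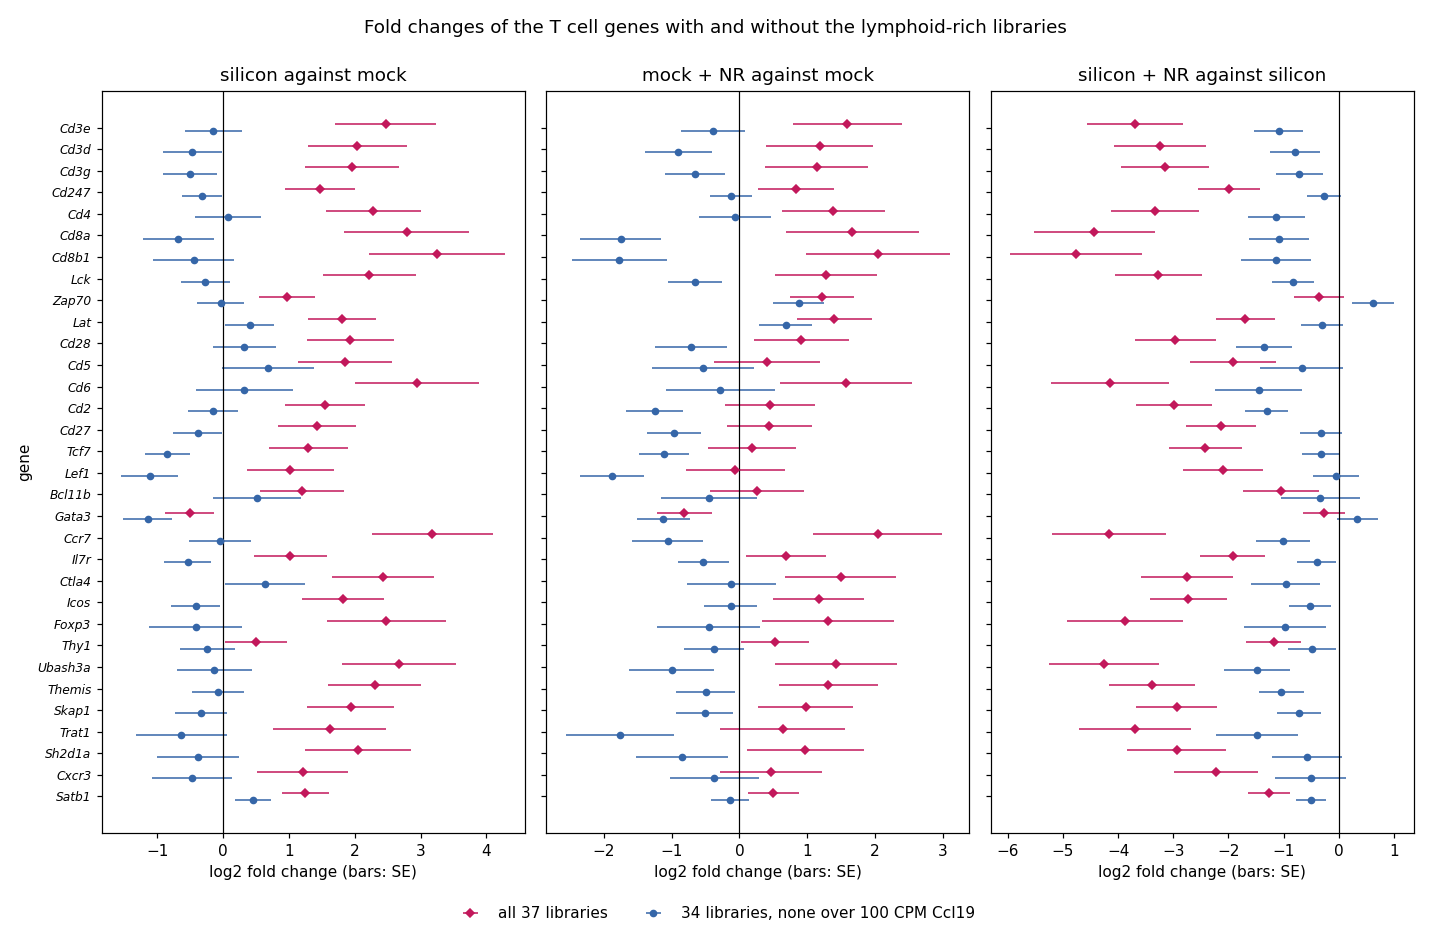
Log2 fold change of each member with its SE in silicon against mock, mock + NR against mock, and silicon + NR against silicon, with all 37 libraries (diamonds) and with the 34 that are not lymphoid-rich (circles). In the first 2 panels most diamonds lie above 0 and most circles at or below it, and in the third both lie below 0 for most members, the circles nearer to it.

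In unirradiated mice given NR most members again had higher fitted levels, and 0 passed. The members' median log2 fold change in mock + NR against mock was 1.06, with 30 of 32 higher, and that of all genes was -0.01. EdgeR called 0 members, beside 0% of all genes, with 3 members at an unadjusted p under 0.05 beside 16.9%. DESeq2 called 0 members, beside 3.55% of its genes. Cd3e stood at 1.59 (SE 0.80, edgeR adjusted p = 0.314), Cd4 at 1.38 (SE 0.76), Cd8a at 1.66 (SE 0.98) and Ccr7 at 2.04 (SE 0.95). Mock + NR replicate 4 held 81.1% of the Cd3e signal of its group. Without the lymphoid-rich libraries of every group the members' median was -0.53, with 2 higher and 30 lower. Of these, 1 higher and 8 lower had an unadjusted p under 0.05, beside 17.1% of all genes, and 0 passed. Here too the removal takes the highest library from mock + NR and none from mock, which lowers the fold by construction.

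In silicon + NR against silicon, all 32 members were lower, with a median log2 fold change of -2.94 beside -0.05 for all genes. EdgeR again called 0 members, beside 0% of all genes, with a smallest adjusted p of 0.0663. At an unadjusted p under 0.05 there were 29 members, all lower, beside 12.8% of all genes, and DESeq2 called 21, all lower, beside 1.96%. Cd3e stood at -3.69 (SE 0.87), Cd4 at -3.33 (SE 0.80), Cd8a at -4.43 (SE 1.10) and Ccr7 at -4.17 (SE 1.03), each with an edgeR adjusted p of 0.0663. Here the lymphoid-rich libraries are in the silicon group alone. Without the lymphoid-rich libraries of every group the median was -0.71, with 30 of 32 still lower. Of these, 8 had an unadjusted p under 0.05 beside 5.24% of all genes, and 0 passed. Without the muscle-rich libraries edgeR called 14 members, all lower, beside 1.04% of all genes, in a fit that keeps silicon replicates 1 and 3 only, the latter lymphoid-rich. Leaving out a single library gave calls in 6 cases. There were 20 members without silicon replicate 1 (beside 1.98% of all genes), 19 without replicate 2 (1.47%), 15 without replicate 4 (0.749%) and 19 without replicate 5 (1.3%). Without mock + NR replicate 3 there were 15 (0.789%) and without mock + NR replicate 4 there were 22 (1.6%).

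Among mice given NR, silicon + NR against mock + NR had a member median of -1.91, beside -0.01 for all genes, with 31 of 32 lower. EdgeR called 0 members, beside 0% of all genes, with 22 at an unadjusted p under 0.05, all lower, beside 2.16%. DESeq2 called 0, beside 0.0093% of its genes. Cd3e stood at -2.80 (SE 0.88), Cd4 at -2.43 (SE 0.81), Cd8a at -3.30 (SE 1.11) and Ccr7 at -3.03 (SE 1.05), with edgeR adjusted p values of 1. Without the lymphoid-rich libraries the median was -0.35.

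The interaction asks whether silicon acted otherwise with NR than without. Its member median was -3.91, beside -0.08 for all genes, with 31 of 32 lower. EdgeR called 0 members, beside 0% of all genes, with 29 at an unadjusted p under 0.05 beside 9.95%. DESeq2 called 18, all lower, beside 1.8%. Cd3e stood at -5.28 (SE 1.16, edgeR adjusted p = 0.0821), Cd4 at -4.71 (SE 1.08), Cd8a at -6.09 (SE 1.44) and Ccr7 at -6.20 (SE 1.39). Without the lymphoid-rich libraries the median was -0.13 and 0 passed. Without the muscle-rich ones edgeR called 25 members, all lower, beside 7.79% of all genes. That fit keeps only replicates 1 and 3 of silicon and replicates 1, 3 and 4 of mock + NR. Of these, silicon replicate 3 and mock + NR replicate 4 are lymphoid-rich. Leaving out silicon replicate 2, 4 or 5 gave 17, 3 or 16 called members, beside 0.89%, 0.118% or 0.737% of all genes. Leaving out mock + NR replicate 2 or 3 gave 6 or 17, beside 0.17% or 0.859%.

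In GCR against mock, Lat alone passed among the members, and 0 of the other 31 did. Lat (chromosome 7, 126363824 to 126369570, minus strand), the adaptor on which signalling complexes gather below the receptor, had lowest, median and highest levels of 4.24, 7.81 and 14.6 CPM in mock. In GCR they were 9.22, 17.7 and 38.9. Of the 7 GCR libraries 6 were above all mock libraries, and replicate 1 was not. The log2 fold change was 1.51 (SE 0.52, edgeR adjusted p = 0.0442). This was 1 of 32 members called, beside 16.6% of all genes tested.

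The call of Lat did not hold in fits without the Rn45s-high or without the muscle-rich libraries. The first of these fits leaves out 3 GCR libraries and 1 mock library. The second leaves out 4 of the 7 mock libraries, so both compare fewer mice. Without the lymphoid-rich libraries Lat stayed called, at 1.44 (SE 0.35, edgeR adjusted p = 0.0146). The GCR libraries over 100000 CPM of Rn45s held Lat at 16.5, 38.9 and 26.3 CPM and the other 4 at 9.22, 26.2, 16.8 and 17.7, while mock replicate 4, also high in Rn45s, held 5.05. Without the 4 libraries high in Rn45s Lat stood at 0.97 (adjusted p = 0.425), and without the muscle-rich ones at 1.07 (adjusted p = 0.331), and 0 members passed in either fit. Nor did any other gene, so 0% of all genes passed in both fits, where 2811 did with all libraries. Leaving out each of the 37 libraries in turn gave 1.29 to 1.66 with an adjusted p of 0.0299 to 0.0999. The call was lost in 12 cases, namely without GCR replicate 2, 3, 5 or 6, mock replicate 1, 3, 4, 5, 6 or 7, gamma replicate 4, or mock + NR replicate 5. The part of Rn45s and of muscle in the result was not tested.

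Zap70 and Thy1 also had higher values in GCR. Zap70 had lowest, median and highest levels of 3.02, 5.34 and 7.93 CPM in mock and 5.9, 8.26 and 12.3 in GCR, with 5 of 7 GCR libraries above all of mock. This was not particular to GCR. Zap70 was above all of mock in 3 of 5 mock + NR, 3 of 6 silicon + NR, 2 of 5 gamma and 2 of 7 silicon libraries. The 2 silicon libraries were the lymphoid-rich ones, at 34.2 and 13 CPM, and the other silicon libraries reached at most 6.51. In mock + NR the lymphoid-rich replicate 4, at 22.7 CPM, was among the 3. In GCR against mock its log2 fold change was 1.0 (SE 0.44, edgeR adjusted p = 0.103). In a fit of mock and GCR alone 2 members passed, Lat and Zap70, beside 5.78% of the 15726 genes tested there. Thy1 was at 2.84, 5.44 and 11.4 CPM in mock and at 4.81, 7.13 and 24.7 in GCR, with a log2 fold change of 1.16 (SE 0.49, edgeR adjusted p = 0.0897). Without mock replicate 4 Thy1 passed and Lat did not, beside 19.1% of all genes. DESeq2 called 2 members, Lat and Thy1, beside 21% of its genes.

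Tcf7 went the other way. It was at 4.34, 10.4 and 17.3 CPM in mock and at 1.78, 4.85 and 13.7 in GCR, so the ranges overlapped. Its log2 fold change was -0.80 (SE 0.62, edgeR adjusted p = 0.363) with all libraries. Without the lymphoid-rich libraries, which are neither mock nor GCR but enter the shared estimate of the spread, it was -0.93 (SE 0.31, adjusted p = 0.0438). In that fit 2 members passed, Lat higher and Tcf7 lower, beside 15.6% of all genes.

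The genes that define T cells were not called in GCR against mock, and their errors were wide with all libraries. Cd3e was at 0.13 (SE 0.77, edgeR adjusted p = 0.922), Cd4 at -0.43 (SE 0.72), Cd8a at -0.70 (SE 0.95) and Ccr7 at 0.59 (SE 0.89). Without the lymphoid-rich libraries Cd3e was at -0.09 (SE 0.41) and Cd4 at -0.58 (SE 0.47). In that fit Cd8a was at -0.95 (SE 0.49, edgeR adjusted p = 0.168) and Ccr7 at 0.41 (SE 0.44). With all libraries the members' median was -0.17, beside -0.06 for all genes, with 12 higher and 20 lower. Of the 36 other T cell and pathway genes 18 were higher and 18 lower (median 0.02). Klf2, a factor that keeps naive T cells quiet and is also strong in endothelium, was the only one of them called, at 0.96 (SE 0.29, edgeR adjusted p = 0.0285), beside the 16.6% of all genes.

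**Figure D4:**
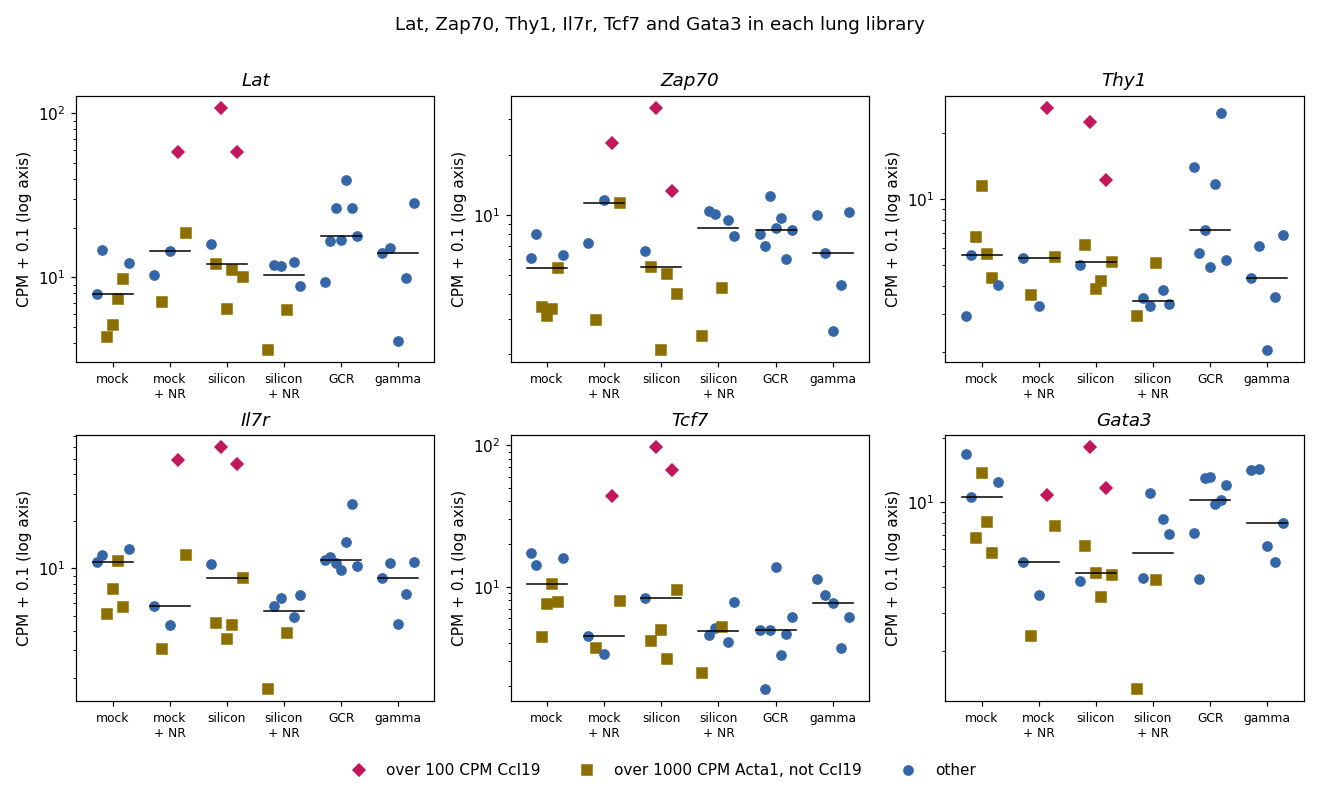
CPM + 0.1 on a log axis for Lat, Zap70, Thy1, Il7r, Tcf7 and Gata3, 1 point per library by group, with black lines at the group medians and the same symbols as for Cd3e. For Lat, 6 of 7 GCR points lie above all mock points, while for Gata3 the lymphoid-rich diamonds lie within or close to the range of the other libraries.

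Gamma rays left no called member. In gamma against mock the median log2 fold change was -0.29, beside -0.01 for all genes, with 5 members higher and 27 lower. EdgeR called 0 members, beside 0.0295% of all genes, and 0 had an unadjusted p under 0.05, beside 10% of all genes. DESeq2 called 0 members, beside 1.34% of its genes. Cd3e stood at -0.28 (SE 0.81, edgeR adjusted p = 0.947), Cd4 at -0.45 (SE 0.77), Cd8a at -0.79 (SE 1.01) and Ccr7 at 0.43 (SE 0.94). These errors were wide, as the lymphoid-rich libraries of other groups enter the shared estimate of the spread. Without those libraries Cd3e was at -0.33 (SE 0.43), Cd4 at -0.49 (SE 0.50), Cd8a at -0.84 (SE 0.53) and Ccr7 at 0.49 (SE 0.46). No member was called in that fit, where Bcl11b had the smallest edgeR adjusted p, 0.482, at -1.40 (SE 0.68).

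Across the 34 libraries that are not lymphoid-rich, most members followed Cd3e. On log2(CPM + 1), 26 of the 31 other members had a Pearson correlation with Cd3e at an adjusted p under 0.05 (permutation test with 100000 resamples, both sides, 31 relations). Both genes of a pair share the depth and composition of each library. Lck had r = 0.87 and Spearman's rho = 0.82, Cd2 r = 0.85 and rho = 0.83, and Cd6, an adhesion receptor, r = 0.84 and rho = 0.84. Each had a permutation p of 1e-05, the smallest these permutations can give, and adjusted p values of 1.94e-05 for r and 2.58e-05 for rho. Without silicon + NR replicate 1 and GCR replicate 4, the libraries farthest from the median of Cd3e, r was 0.82, 0.80 and 0.81. Within the 12 muscle-rich libraries r was 0.96, 0.84 and 0.92, and within the 22 others 0.81, 0.86 and 0.85, so these relations held in both.

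The 5 members that did not pass were Thy1 (r = 0.28, permutation adjusted p = 0.128), Satb1 (0.21, 0.245), Zap70 (0.12, 0.525), Cd5 (0.12, 0.525) and Bcl11b (-0.03, 0.855). For Lat and Gata3, r was 0.37 and 0.43 and fell to 0.22 in each without the 2 farthest libraries. Both passed by r but not by Spearman's rho, which was 0.31 for each (permutation adjusted p = 0.0921 for Lat and 0.0848 for Gata3).

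Cd5, which damps receptor signals, and Bcl11b, a factor that sets T cell identity and is also made in squamous epithelium, stood higher in the muscle-rich libraries than elsewhere. Within the 22 libraries that are neither muscle-rich nor lymphoid-rich, Cd5 followed Cd3e with r = 0.84 and Bcl11b with r = 0.65. Within the 12 muscle-rich ones r was -0.42 and -0.67. Cd5 was at 2.02 to 9.25 CPM (median 5.95) in the 12 and at 0.397 to 3.47 (median 1.21) in the 22. Bcl11b was at 4.23 to 29.1 CPM (median 14.7) in the 12 and at 1.47 to 10.4 (median 3.4) in the 22. Cd3e did not differ in this way, with medians of 2.59 and 3.29 CPM. Krt5, a keratin of basal squamous cells, had a median of 348 CPM in the 12 and 1.33 in the 22, and its part in the result was not tested.

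Silicon + NR replicate 1 was the far case. It had 10 reads of Cd3e, 273 of Cd5 and 860 of Bcl11b, which gives 27.3 Cd5 and 86 Bcl11b reads per Cd3e read. The medians over the 34 libraries were 0.45 and 1.54. In the lymphoid-rich libraries Cd5 gave 0.311 to 0.477 reads per Cd3e read. Muscle-rich libraries were 4 of 7 in mock, 5 of 7 in silicon, 2 of 5 in mock + NR, 2 of 6 in silicon + NR and 0 in GCR and gamma.

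**Figure D5:**
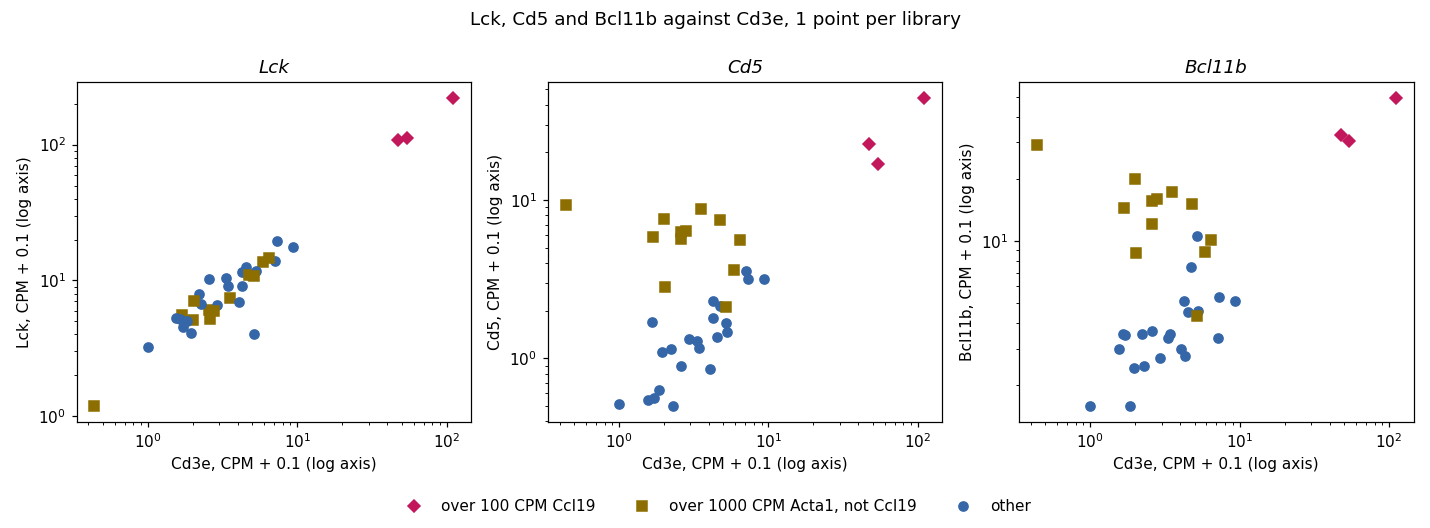
Lck, Cd5 and Bcl11b against Cd3e, each as CPM + 0.1 on log axes, 1 point per library, with diamonds for the 3 lymphoid-rich, squares for the 12 muscle-rich and circles for the 22 other libraries. Lck rises with Cd3e in all 3 kinds, while for Cd5 and Bcl11b the squares lie above most circles at like levels of Cd3e.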

How the data were processed

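RNA from lung tissue of 37 mice was measured, 1 library per mouse. Per the labels' protocols, Trizol was the extraction reagent, SMART-seq v4 gave the cDNA and Nextera XT the libraries; this kit keeps no strand. The build mm10 and the tools HTSeq 0.13.5, STAR 2.5.2, Trimmomatic 0.36, MultiQC 1.12 and FastQC 0.11.4 are named, without settings, per the submitters' processing notes. The authors deposited whole-number read counts per gene symbol for 24421 symbols, not normalized.

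Groups and sex came from the labels. CPM were computed from the counts and library totals. Replicate numbers follow accession order and only name a mouse. Within groups, all 98 pairs of libraries differed beyond sampling noise (chi-square at least 20.1 for each degree of freedom). Nothing in the labels says whether the GCR mice were handled in another batch, so batch and group cannot be told apart there.

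Differential expression was tested with edgeR 4.0.16 (R 4.3.3), by its quasi-likelihood test after TMM scaling, for 6 groups and sex over all 37 libraries, after filterByExpr left 16977 genes, all 32 members among them. P values were adjusted by the Benjamini-Hochberg method over all genes tested, and called means an adjusted p under 0.05. The median biological coefficient of variation was 0.332. Alternatives were RLE size factors, DESeq2 1.42.0, no sex term, no count filter, only the groups compared, each library left out in turn, and fits without the lymphoid-rich, muscle-rich or Rn45s-high libraries. The test was checked on simulated counts. Those were drawn gene by gene around a common mean, with set genes raised in silicon. They held no lymphoid-rich, muscle-rich or Rn45s-high libraries, so the check does not cover the effect of such libraries. Coordinates and exon lengths are from GENCODE M21 on mm10 (GRCm38), which held 95.72% of the symbols. Correlations, permutations and figures were made with Python 3.11.15, numpy 2.4.6, scipy 1.17.1, pandas 2.3.3 and matplotlib 3.10.9.

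All members are named by level. By rule, log2 fold changes are given for 10 fixed members in silicon against mock, for 4 fixed members (Cd3e, Cd4, Cd8a and Ccr7) in the other comparisons, and for every member called by edgeR with all 37 libraries; Zap70, Thy1 and Tcf7 in GCR were added after their values were seen, and members called under alternatives alone are given by name or count. The members, marker lists and comparisons were chosen with earlier results of these data known.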

Additional observations from a re-analysis of the deposited data

Results flagged for a closer look

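In 43 of the 192 sets made of 1 member in 1 group, the highest library lay far from the rest of its group by Dixon's criterion at 95%. Chance flags about 1 in 20 groups, and members that move together are flagged together. In mock + NR, replicate 4 was the far library for 28 members. Their levels in CPM were Cd3e (54.2), Cd3d (60.5), Cd3g (67.8), Cd247 (22.2), Cd4 (28.9), Cd8a (36.9), Cd8b1 (49.4), Lck (112), Lat (57.7), Cd28 (20.7), Cd6 (22), Cd2 (57.6), Cd27 (25.9), Tcf7 (43.5), Lef1 (30.8), Ccr7 (128), Il7r (49.5), Ctla4 (8.47), Icos (21.8), Foxp3 (5.41), Thy1 (26.1), Ubash3a (12.9), Themis (9.69), Skap1 (26.7), Trat1 (3.24), Sh2d1a (6.85), Cxcr3 (16.1) and Satb1 (53.5). This is the lymphoid-rich library of the group.

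Silicon replicate 3 was the far library for 3 members, at CPM of Cd3e (110.5), Zap70 (34.2) and Ctla4 (17.8). For most other members silicon replicate 6 was also high, so that no single library of that group stood apart.

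Libraries that are not lymphoid-rich gave the other 12 flags. In mock replicate 2 they were Cd3d (11), Cd4 (7.33), Cd8a (5.54) and Themis (1.75) CPM. In GCR replicate 4 they were Cd6 (4.65), Tcf7 (13.7), Sh2d1a (1.91) and Cxcr3 (7.17) CPM, and in GCR replicate 6 Il7r (25.6) CPM. In silicon + NR replicate 4 they were Cd28 (3.58), Cd6 (2.65) and Cd27 (4.89) CPM.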

How the results depend on the processing

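Without the 3 lymphoid-rich libraries the members' median log2 fold change moved to -0.29 in silicon against mock, -0.53 in mock + NR against mock, -0.35 in silicon + NR against mock + NR, -0.71 in silicon + NR against silicon and -0.13 in the interaction. Directions turned for Cd3e (-0.15), Cd8a (-0.68), Lck (-0.27), Ccr7 (-0.05), Il7r (-0.54), Tcf7 (-0.85), Foxp3 (-0.42), Cxcr3 (-0.48) and Thy1 (-0.24) in silicon against mock. They turned for Cd3e (-0.39), Cd4 (-0.07), Cd8a (-1.75) and Ccr7 (-1.06) in mock + NR against mock, for Ccr7 in silicon + NR against mock + NR (0.00), and for Cd8a (0.67) and Ccr7 (0.05) in the interaction. The lymphoid-rich libraries lie in silicon and mock + NR alone and have the highest levels of most members. Such moves are thus partly built into their removal. In GCR against mock Cd3e was at -0.09 without them, -0.33 without the muscle-rich libraries, -0.01 without the Rn45s-high ones and -0.25 with only the groups compared.

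Without the muscle-rich libraries the medians were -4.11 in silicon + NR against silicon and -5.53 in the interaction. Members called were 9 by DESeq2 in silicon against mock. In GCR against mock they were 0 without a count filter, without the muscle-rich or without the Rn45s-high libraries, and 2 without the lymphoid-rich ones, with only the groups compared and by DESeq2. In silicon + NR against silicon they were 14 without the muscle-rich libraries and 21 by DESeq2, and in the interaction 25 and 18.

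Genes called moved to 725 (without muscle-rich) and 432 (DESeq2) in silicon against mock, and to 425 and 572 in mock + NR against mock. They moved to 179 and 356 in silicon + NR against silicon and to 1335 and 319 in the interaction. In GCR against mock there were 0 without the muscle-rich or the Rn45s-high libraries and 909 with only the groups compared. In gamma against mock there were 2 without the lymphoid-rich libraries, 0 without the muscle-rich ones or with only the groups compared, and 249 by DESeq2. In silicon + NR against mock + NR DESeq2 called 2.

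Leaving out 1 library at a time gave 0 to 307 genes called in silicon against mock, 501 to 4087 in GCR, 1 to 18 in gamma, 0 to 265 in mock + NR against mock, 0 to 336 in silicon + NR against silicon and 0 to 151 in the interaction. Members called were 0 to 1, 0 to 22 and 0 to 17 in GCR, silicon + NR against silicon and the interaction. Medians ran from 0.81 to 2.07 in silicon against mock, -0.53 to 1.30 in mock + NR against mock, -2.19 to -0.35 in silicon + NR against mock + NR, -3.14 to -1.72 in silicon + NR against silicon and -4.16 to -2.31 in the interaction. The ends nearest to 0, or past it, came without silicon replicate 3 or mock + NR replicate 4. Cd3e in GCR ran from -0.13 to 0.31. In mock + NR against mock Cd3e ran from -0.36 to 1.88, Cd4 from -0.06 to 1.75, Cd8a from -1.67 to 1.97 and Ccr7 from -1.04 to 2.35. Ccr7 in silicon + NR against mock + NR ran from -3.36 to 0.01. The causes of these changes were not tested. RLE size factors and leaving out the sex term moved no count of members and turned no direction. No paired analysis was possible because replicate numbers follow accession order and pair no mice. Foxp3 and Trat1, with few reads in most libraries, are limited by depth.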
